A study of Mus musculus with 24 samples.

Results

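Exposed TM3 cells at 24 h were compared with exposed TM3 cells at 0 h. These cells had received a nanosecond pulsed electric field (nsPEF), and the 8 arrays concerned, 4 from each time point, were taken by their sample titles from the 24 arrays of the series. TM3 is an established mouse Leydig cell line, so all samples stand for 1 line in culture. In the exposed cells a suspension received 80 pulses of 60 ns at 14 kV/cm and 5.5 kV amplitude, delivered at 26.4 pulses per minute over 180 s in an electroporation cuvette, and RNA was taken directly afterwards (0 h) or 24 h later. The 8 sham arrays from the same times, whose cells were handled in the same way without pulses, show how much of a change over time also occurred without the field. Nothing in the labels says more about the replicates than that each is a separate sample, so p-values measure the spread between these samples. The question was which changes over 24 h in exposed cells differed in size from the changes over the same time in sham cells.

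Leydig cells are the androgen-producing cells of the testis interstitium, which turn cholesterol into steroids under the control of luteinizing hormone. Immediate-early genes such as Fos, Egr2 and Nr4a1 are transcribed within minutes of a stimulus, without new protein synthesis, and their short-lived transcripts encode transcription factors and feedback regulators that disappear again as signalling stops. Very short electric pulses charge the membranes of a cell, and are known to make them permeable for a time and to disturb ions and cell volume.

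Upstream of their transcription start, many immediate-early genes carry binding elements for Creb and for serum response factor, and the core of the Creb element is TGACG. The 250 bases before the start of 4 genes in which this element and the results of the comparison meet are shown here. They are RefSeq sequences on build GRCm38.p6, written 5′ to 3′ on the strand of the gene, with TGACG or its reverse complement CGTCA in capitals. Fos is at chr12:85473640-85473889 on the plus strand, Nr4a1 at chr15:101266596-101266845 on the plus strand, Nr4a2 at chr2:57124004-57124253 on the minus strand and Ccn1 at chr3:145649986-145650235 on the minus strand.
Fos: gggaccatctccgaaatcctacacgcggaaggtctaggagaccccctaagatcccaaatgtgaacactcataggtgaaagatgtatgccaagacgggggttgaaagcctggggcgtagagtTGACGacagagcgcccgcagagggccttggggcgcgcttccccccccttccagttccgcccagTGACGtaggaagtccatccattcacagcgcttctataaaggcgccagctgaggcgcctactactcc
Nr4a1: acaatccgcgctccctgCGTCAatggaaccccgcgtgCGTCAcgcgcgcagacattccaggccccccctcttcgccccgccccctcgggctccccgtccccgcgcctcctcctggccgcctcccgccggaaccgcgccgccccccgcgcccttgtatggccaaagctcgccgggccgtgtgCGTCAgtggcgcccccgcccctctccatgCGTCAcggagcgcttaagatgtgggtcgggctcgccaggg
Nr4a2: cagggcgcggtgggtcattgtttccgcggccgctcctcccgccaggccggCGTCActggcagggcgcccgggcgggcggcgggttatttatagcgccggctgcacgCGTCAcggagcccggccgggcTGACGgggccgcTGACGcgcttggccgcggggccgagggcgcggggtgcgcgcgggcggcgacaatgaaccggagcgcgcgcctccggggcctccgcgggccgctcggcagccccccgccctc
Ccn1: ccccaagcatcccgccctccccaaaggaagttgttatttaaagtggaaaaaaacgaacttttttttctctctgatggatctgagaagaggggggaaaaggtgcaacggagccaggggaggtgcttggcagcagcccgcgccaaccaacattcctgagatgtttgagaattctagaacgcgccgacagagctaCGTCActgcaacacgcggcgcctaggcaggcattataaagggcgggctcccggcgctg
The element stood 2 times in the Fos window, 4 times in that of Nr4a1, 4 times in that of Nr4a2 and once in that of Ccn1. Of the 24 immediate-early genes with a promoter window, 14 (58.3%) held the element on either strand, beside 5347 of all 27025 genes with a window (19.8%). The serum response element known as the CArG box was found in 3 of the 24 (12.5%), beside 439 of all genes (1.62%). A match of letters is a description of the sequence and not evidence of a bound factor.

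The arrays were one-colour Agilent arrays of mouse transcripts, and each value is a log2 level relative to the 75th percentile of its own array. The arrays of exposed cells measured somewhat less than those of sham cells. The share of probes well above background ran from 52.79 to 57.2% on the exposed 0 h arrays and from 52.91 to 57.74% on the exposed 24 h arrays, against 57.62 to 59.65% and 59.17 to 61.16% on the sham arrays of the same times. Spots marked as not uniform numbered 67 to 153 at 0 h and 304 to 492 at 24 h in exposed cells, against 37 to 84 and 75 to 124 in sham cells. Replicate 1 of the exposed 24 h group had the most of them, 492, and lay at the largest mean Euclidean distance from the other arrays of its group, 61.9, where the other 3 lay at 56.2 or above. Each time point had a slide to itself, which means that an effect of time cannot be told apart from one of the slide. The sham and exposed arrays lay in different rows of each slide, and treatment cannot be told apart from that row either. The difference between the exposed and the sham change over 24 h was taken within slides.

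The Leydig label was only partly borne out. Of 7 Leydig markers on the array, Star, Cyp17a1 and Nr5a1 were well above background on all 24 arrays, whereas the luteinizing hormone receptor Lhcgr and the steroidogenic enzymes Cyp11a1, Hsd3b1 and Hsd17b3 were not well above background on any. Markers of other testis cells were also measured on all arrays, among them 3 of 8 for Sertoli cells (Wt1, Sox9 and Rhox5), 5 of 11 for macrophages and 4 of 7 for peritubular myoid cells or fibroblasts. Other members of these lists were hardly measured. Ptprc, Adgre1 and Fshr were well above background on 1 of 24 arrays each, Amh on 2, and Cx3cr1 and Thy1 on 0. The summed level of the fibroblast list, on a linear scale relative to the 75th percentile, was 102 to 118 on the exposed 0 h arrays and 75.9 to 79.9 at 24 h. The macrophage list stood at 10.3 to 12.5 and then 7.39 to 8.46, the Sertoli list at 21.4 to 23.8 and then 15.2 to 18.3, and the Leydig list at 2.41 to 3.6 and then 2.02 to 2.74. On the sham arrays the fibroblast list stood at 106 to 113 and then 82.6 to 86.7. The sham macrophage list stood at 10.1 to 11.1 and then 8.01 to 8.17. For the sham Sertoli list the values were 20.7 to 25.3 and then 18.3 to 20.8, and for the Leydig list 2.95 to 4.24 and then 1.79 to 2.66. These sums are levels of marker transcripts in bulk samples of 1 cell line and give no count of cell types. Their part in the results below was not tested.

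After 24 h the exposed cells had lower levels of most of the immediate-early genes, cholesterol synthesis genes and extracellular matrix genes tested, the last of these not when the arrays were scaled on spike-in RNA. The non-coding RNAs Mir100hg, Snora74a, Scarna13 and Snhg4 were higher, and more genes of glycolysis, antioxidant defence and the heat shock response rose than fell. Most probes that changed in exposed cells changed in the same direction in sham cells, and the difference between both changes passed the test for few probes. Of 29429 probes that were well above background on all 4 arrays of at least one of the exposed groups, 14680 changed from 0 h to 24 h in exposed cells (49.9% of the tested probes, with limma's moderated test and a Benjamini-Hochberg adjusted p under 0.05). Of these, 7923 rose (26.9%) and 6757 fell (23.0%), and 1609 changed by at least 2-fold. In sham cells 13307 of the same probes changed (45.2%), of which 6444 rose (21.9%) and 6863 fell (23.3%). The difference between the changes passed the test for 139 probes (0.472%), of which 80 were more positive in exposed cells (0.272%) and 59 more negative (0.200%), and 50 differed by at least 2-fold. This balance turned when the arrays were scaled on spike-in RNA, where 81 were more positive and 2059 more negative and the median difference of all genes moved from 0.02 to -0.20. It also turned when only the 4 groups compared were fitted, with 83 more positive and 211 more negative. These 139 stand beside 5300 probes with an unadjusted p under 0.05. A probe called in both treatments had the same direction in 9535 cases, which were 65.0% of the exposed and 71.7% of the sham calls, and the opposite direction in 75 cases.

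**Figure D1:**
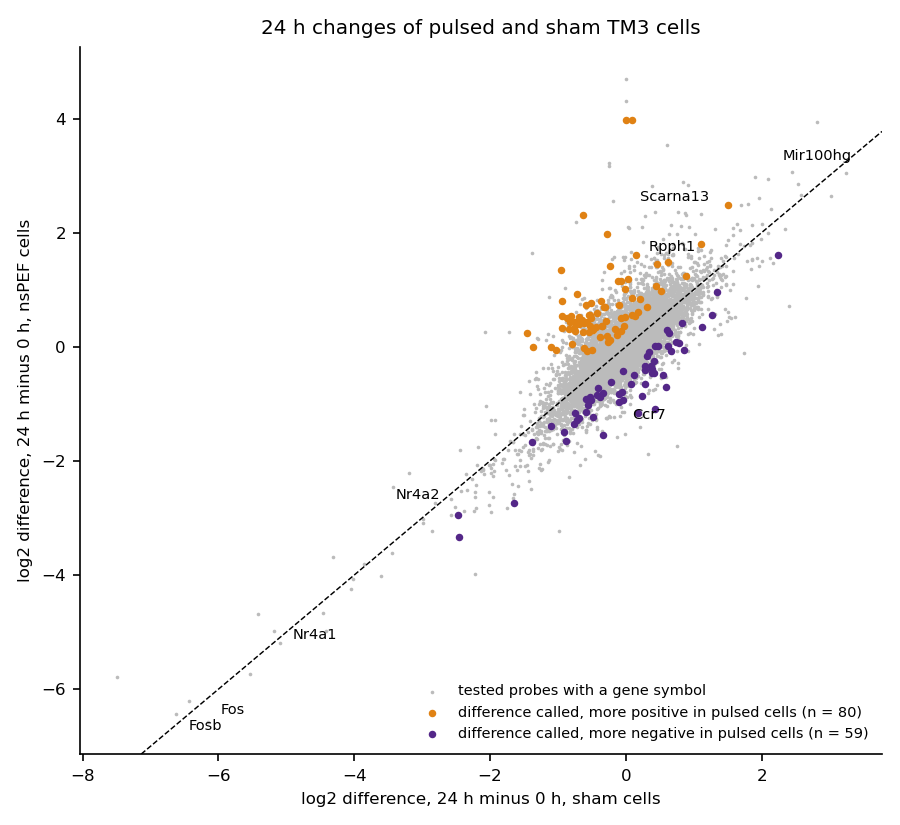
Change over 24 h in log2 units for the 20486 tested probes with a gene symbol, in sham cells (horizontal axis) and in nsPEF-exposed cells (vertical axis). Most probes lie near the line of equal change. The 139 probes whose difference passed the test (80 above and 59 below the line), with or without a symbol, are marked.

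Scaling set the direction of small changes. With arrays scaled on the spike-in RNA instead of the 75th percentile, the median of all 13953 tested genes moved from 0.01 to 0.48 in exposed cells and from -0.01 to 0.67 in sham cells, and 94.6% of the called probes rose in exposed cells, against 54.0% with the 75th percentile. Changes are therefore to be read as relative to the other transcripts of the same array. The counts of each gene group below stand beside 26.9% higher and 25.9% lower among all tested genes in exposed cells. In sham cells these shares were 20.5% and 25.8%. Counts under the spike-in scaling are given with each gene group whose balance of rises and falls turned.

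The immediate-early genes had the lowest median change of the gene groups examined. Of 31 tested immediate-early transcription factors and regulators, 27 fell and 2 rose in exposed cells (1 probe a gene, beside 25.9% lower and 26.9% higher among all 13953 genes), with a median change of -2.13 against 0.01 over all genes. In sham cells 26 fell and 2 rose, with a median of -1.99. Fos, a subunit of the AP-1 transcription factor, stood at 6.13, 6.16, 6.07 and 6.17 on the exposed 0 h arrays and at -0.11, -0.65, -0.37 and -0.65 on the 24 h arrays. All 4 later values lay below all 4 earlier ones, and the fall was 6.57 ± 0.10 (SE), or 95.3-fold (adjusted p = 5.1e-20). Such a lack of overlap was common, with 12690 of the 29429 tested probes (43.1%) in exposed cells and 14088 (47.9%) in sham cells. Fosb, its paralog, fell by 6.43 (86.2-fold), from 3.33 to 3.42 at 0 h down to -3.09 to -2.99. The nuclear receptor Nr4a1 fell by 5.20 (36.7-fold), from 6.61, 6.71, 6.67 and 6.74 to 1.54, 1.50, 1.50 and 1.41. Its groups were far apart, and its 4 values at 24 h lay close together.

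Other genes with large falls included the feedback regulators Zfp36 and Dusp1. Zfp36, whose protein binds and destabilizes AU-rich mRNAs, fell by 4.25 (19.0-fold), and Dusp1, a phosphatase of MAP kinases, fell by 4.01 (16.1-fold). Hes1, a Notch target and repressor, fell by 4.08 (16.9-fold), Jun, the partner of Fos, by 3.81 (14.0-fold) and Btg2, an antiproliferative gene, by 3.61 (12.2-fold). Klf4, a zinc-finger factor, fell by 3.01 (8.09-fold). In sham cells these 6 genes fell by 2.99 to 4.06, and for none of them did the difference from sham pass the test. A further 4 transcripts could be given only a bound because they were not well above background on any exposed 24 h array. Fam71a was at least 25-fold lower, Lsmem1 at least 18.6-fold lower, Apol8, an apolipoprotein L, at least 13.4-fold lower and a Klf10 probe at least 7.2-fold lower at 24 h, and all 4 were also measured on 4 sham arrays at 0 h and on 0 at 24 h.

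Nr4a2 and Ccn1 had a larger called fall in exposed cells than in sham cells with all arrays in the fit. Nr4a2, a nuclear receptor of the same family as Nr4a1, stood at 2.68, 2.63, 2.74 and 2.91 at 0 h and at -0.20, -0.17, -0.29 and -0.20 at 24 h in exposed cells. In sham cells it stood at 2.38, 2.39, 2.21 and 2.56 and then at -0.05, -0.06, -0.10 and -0.13. Every exposed array lay above every sham array at 0 h and below every one at 24 h. The fall was 2.95 in exposed and 2.47 in sham cells, a difference of -0.48 ± 0.10 (SE, adjusted p = 0.037), and of its 2 probes the other fell by 2.82 without a called difference. Ccn1, a secreted matricellular protein and target of Yap, stood at 4.94, 5.07, 5.01 and 4.99 at 0 h and at 3.30, 3.31, 3.45 and 3.30 at 24 h in exposed cells. The sham arrays at 24 h, at 3.62, 3.59, 3.70 and 3.69, lay above all of these. Its fall was 1.66 against 1.38 in sham cells, a difference of -0.29 ± 0.06 (adjusted p = 0.043). With single arrays left out Nr4a2 remained called in 7 of 16 cases and Ccn1 in 5 of 16. Under the other processing settings tried Nr4a2 was called in 14 of 16 and Ccn1 in 11 of 15. With 1 replicate number dropped from every group, both were called in 0 of 4 cases. Egr2, a zinc-finger factor of the same early wave, fell by 4.98 against 4.41 in sham cells, and that difference of -0.57 missed the threshold (adjusted p = 0.057).

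**Figure D2:**
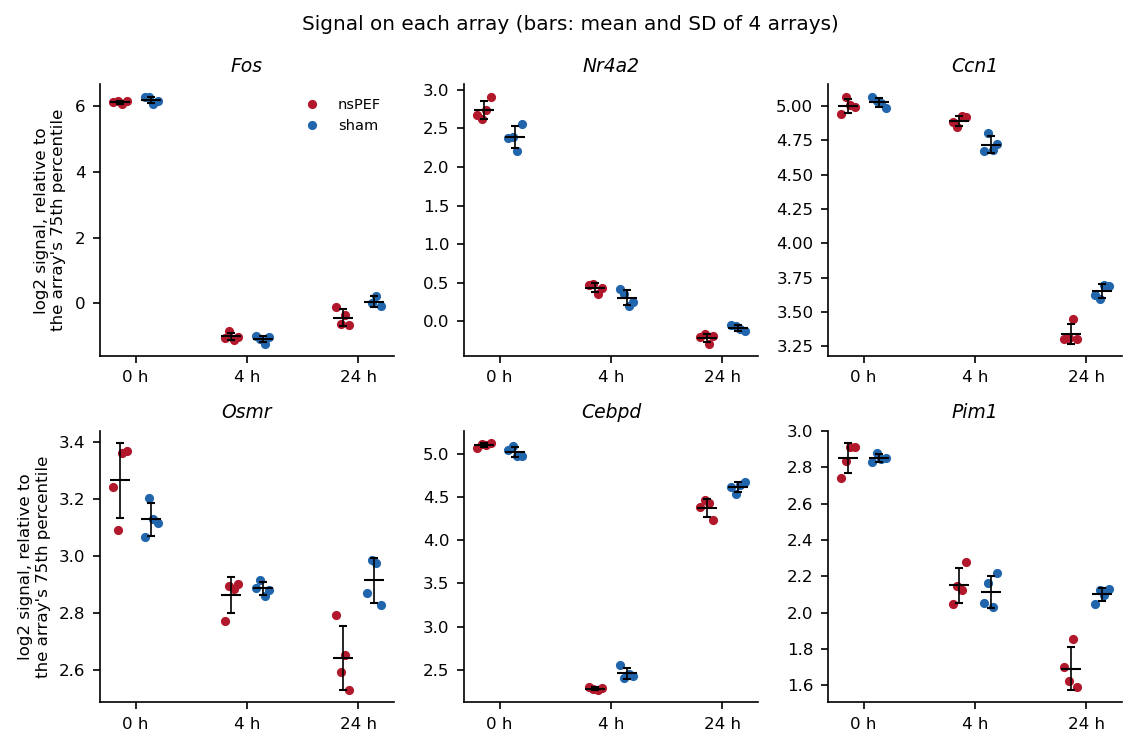
Log2 level relative to the array's 75th percentile of Fos, Nr4a2, Ccn1, Osmr, Cebpd and Pim1 at 0, 4 and 24 h, with a dot for each array and the mean ± SD of each group of 4 arrays (3 for Fos in sham cells at 24 h, where 1 spot was marked). At 24 h the exposed arrays of Ccn1, Osmr, Cebpd and Pim1 lie below the sham arrays.

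Osmr, Cebpd and Pim1, which have parts in cytokine signalling, were picked from the called differences after their values were seen. Their shared direction is part of that choice and is no result about cytokine signalling. Osmr, the receptor chain for oncostatin M, stood at 3.24, 3.09, 3.36 and 3.37 in exposed cells at 0 h and at 2.79, 2.59, 2.65 and 2.53 at 24 h. It fell by 0.62 in exposed and by 0.21 in sham cells (difference -0.41 ± 0.09, adjusted p = 0.043). Cebpd, a transcription factor of the acute phase response, fell by 0.72 against 0.40 (difference -0.32 ± 0.07, adjusted p = 0.043). Pim1, a kinase induced by Jak and Stat signalling, fell by 1.16 against 0.75 (difference -0.41 ± 0.09, adjusted p = 0.041). The exposed arrays of all 3 genes lay below all sham arrays at 24 h. The differences of Osmr, Cebpd and Pim1 remained called with single arrays left out in 5, 6 and 6 of 16 cases. Under the other processing settings tried they were called in 10 of 16, 11 of 16 and 11 of 15. With 1 replicate number dropped from every group, each was called in 0 of 4 cases.

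Genes of cholesterol synthesis and uptake fell in exposed cells almost without exception. Of 24 tested, 22 fell and 0 rose, with a median of -0.98, and the sham counts were the same with a median of -0.87. Under the spike-in scaling 17 of them fell and 3 rose. Tm7sf2, a sterol reductase, stood at 0.33, 0.32, 0.40 and 0.49 at 0 h and at -1.06, -1.26, -1.13 and -1.37 at 24 h, without overlap, and fell by 1.59 (3.02-fold). Lss, which closes the sterol rings, fell by 1.40, and Mvd, a decarboxylase of the mevalonate pathway, by 1.37. The difference from sham did not pass the test for the probe that stood for any of these 24 genes. The other probe of Msmo1, a C4-methyl sterol oxidase, named after its values were seen, fell by 0.88 in exposed and by 0.53 in sham cells (difference -0.35, adjusted p = 0.044, called in 4 of 16 cases with single arrays left out), while the probe that stood for Msmo1 differed by -0.21 (adjusted p = 0.127).

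Collagens and extracellular matrix genes were lower at 24 h. Of 36 tested, 24 fell and 4 rose in exposed cells with a median of -0.47, and under the spike-in scaling 12 fell and 14 rose. In sham cells 21 fell and 4 rose, with a median of -0.37. Lox, the enzyme that crosslinks collagen and elastin, stood at 5.00, 4.91, 4.96 and 5.11 at 0 h and at 3.59, 3.13, 3.47 and 2.93 at 24 h in exposed cells. All later values lay below all earlier ones, and below the sham 24 h values of 3.89, 3.80, 3.94 and 3.75. Lox fell by 1.71 in exposed and by 1.08 in sham cells, and the difference of -0.63 ± 0.15 missed the threshold (adjusted p = 0.054). Dcn, a small proteoglycan, fell by 1.25 against 0.97 and Plat, a plasminogen activator, by 1.04 against 0.71, again without a called difference. Of 24 Srf and Yap target genes, which include Ccn1, 9 fell and 4 rose in exposed cells, a balance that turned to 4 and 17 under the spike-in scaling. In sham cells 10 of the 24 fell and 4 rose. Myl9, a myosin light chain, fell by 2.23 and Thbs1, a matricellular glycoprotein, by 1.14.

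Genes of the integrated stress response and of the interferon response fell more often than they rose, although the former did not under the spike-in scaling. Of 25 genes of the integrated stress response 17 fell and 1 rose, with a median of -0.30 in exposed and -0.42 in sham cells, whereas under the spike-in scaling 5 fell and 11 rose. In sham cells 19 of the 25 fell and 0 rose. Ppp1r15a, the phosphatase subunit that restarts translation after stress, fell by 2.23 (4.67-fold), from 3.45, 3.59, 3.56 and 3.61 to 1.21, 1.36, 1.34 and 1.41, with no overlap. Gdf15, a stress cytokine, fell by 1.76. Of 19 interferon response genes 13 fell and 0 rose (median -0.44), against 7 and 5 under the spike-in scaling, and Irf7, a master regulator of the response, fell by 1.31. In sham cells 13 of the 19 also fell and 0 rose (median -0.45). Of 20 NF-kB targets and chemokines 8 fell (40%) and 5 rose (25%), beside 25.9% and 26.9% of all genes. The counts were the same in sham cells, and 3 fell and 12 rose under the spike-in scaling in exposed cells. Cxcl2, a neutrophil chemokine, was not well above background on any exposed 24 h array and was at least 3.38-fold lower there. Ptgs2, the inducible cyclooxygenase, fell by 1.76, whereas the chemokine Ccl20 rose by 0.94. 

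Glycolysis, antioxidant and chaperone genes rose more often than they fell in exposed cells. Of 29 glycolysis and hypoxia genes 17 rose (58.6%) and 4 fell (13.8%), with a median of 0.22, beside 26.9% and 25.9% of all genes. In sham cells 16 rose and 4 fell, with a median of 0.21. Egln3, a prolyl hydroxylase that senses oxygen, stood at 0.30, 0.33, 0.42 and 0.40 at 0 h and at 1.74, 1.72, 1.49 and 1.71 at 24 h, and rose by 1.30 (2.47-fold), against 1.34 in sham cells. Vegfa, the angiogenic growth factor, went the other way and fell by 1.37. Of 20 antioxidant genes under Nrf2 control 13 rose and 4 fell (median 0.22) in exposed cells, and 6 rose and 4 fell (median 0.07) in sham cells. Nqo1, a quinone reductase, rose by 0.76 and G6pdx, the entry enzyme of the pentose phosphate pathway, by 0.48, while Osgin1 fell by 1.13. Of 17 heat shock proteins and cochaperones 9 rose and 2 fell, led by Hsph1, a nucleotide exchange factor of Hsp70, with a rise of 0.81. In sham cells 6 of the 17 rose and 3 fell. The counts of the treatments were not themselves compared by a test.

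Cell death genes of the Bcl2 family were raised in 8 and lowered in 2 of 13 cases, with a median of 0.23. In sham cells 6 were raised and 3 lowered, with a median of 0.13. Bax, the pore-forming protein of the outer mitochondrial membrane, was measured on 3 of the 4 exposed 24 h arrays, where it stood at 3.82, 3.61 and 3.78 after 3.18, 3.19, 3.18 and 3.08 at 0 h. It rose by 0.58 against 0.27 in sham cells, and the difference of 0.31 missed the threshold (adjusted p = 0.083). Pmaip1, known as Noxa, and Bmf, both BH3-only genes that promote apoptosis, fell by 0.65 and 0.82. Of 21 p53 targets 10 rose (47.6%) and 7 fell (33.3%), beside 26.9% and 25.9% of all genes, and 8 rose and 5 fell in sham cells. Aen, a nuclease, was raised by 0.62 and Plk3, a stress kinase, lowered by 1.30. Of 43 DNA repair genes 12 rose and 15 fell in exposed cells, and 13 rose and 13 fell in sham cells. These shares lay near those of all genes tested (26.9% higher and 25.9% lower in exposed cells), and under the spike-in scaling 35 rose and 0 fell. A probe for Ddb2, a damage recognition protein named after its values were seen, differed between the treatments by -0.44 (adjusted p = 0.021), with a change of -0.10 in exposed cells that did not pass the test and a rise of 0.34 in sham cells. It remained called in 10 of 16 cases with single arrays left out.

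Of 43 DNA replication genes 17 rose (39.5%) and 7 fell (16.3%), with a median of 0.07, beside 26.9% and 25.9% of all genes. In sham cells 8 rose and 9 fell (median 0.03). Among those raised in exposed cells were Pola2, a subunit of DNA polymerase alpha, by 0.66 and Ccne1, the cyclin of S-phase entry, by 0.54. Of 39 mitosis and spindle genes 20 fell and 3 rose (median -0.12), with the kinetochore gene Spc25 lower by 0.52, but under the spike-in scaling 0 fell and 29 rose. In sham cells 18 of the 39 fell and 3 rose (median -0.13). Of 73 oxidative phosphorylation subunits 34 fell and 1 rose (median -0.15), against 56 and 0 (median -0.23) in sham cells, and under the spike-in scaling 0 fell and 63 rose in exposed cells. The difference from sham was positive for 66 of the 73 with a median of 0.10, beside 7467 of all 13953 genes with a median of 0.02. Other lists also leaned to 1 side. It was positive for 34 of 43 DNA replication and 20 of 25 integrated stress response genes, and negative for 20 of 24 cholesterol and 28 of 36 matrix genes. For mitosis genes it was positive in 19 of 39. Genes read on the same arrays are not independent. The sign of the median of the oxidative phosphorylation subunits depended on the scaling. Under the spike-in scaling it was -0.12 beside -0.20 over all genes, and with quantile normalization 0.03 beside -0.01. With limma the difference was called for 0 of the 73 (9 at an unadjusted p under 0.05 and 0 by the plain analysis of variance). Without replicate 1 of the exposed 24 h group limma called it for 5, beside 1827 of all 29429 tested probes.

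Of 14 tested genes of steroidogenesis and Leydig cell identity 7 fell (50%), 3 rose (21.4%) and 4 did not pass the test (median -0.19). Among all genes 25.9% fell and 26.9% rose. In sham cells 9 of the 14 fell and 2 rose, and under the spike-in scaling 2 fell and 8 rose in exposed cells. Star, which carries cholesterol into mitochondria for steroid synthesis, stood at -3.61, -3.58, -3.32 and -3.25 at 0 h and at -4.37, -4.32, -4.08 and -4.15 at 24 h. The groups did not overlap, as for 43.1% of all tested probes, and the fall of 0.79 (1.73-fold) stood beside one of 0.61 in sham cells. Gata6, a transcription factor of steroidogenic cells, fell by 0.68 and Fdxr, which feeds electrons to mitochondrial steroid hydroxylases, by 0.65. The change of Cyp17a1 in exposed cells was -0.24 (adjusted p = 0.207), beside a fall by 0.80 in sham cells, and the difference of 0.56 did not pass the test (adjusted p = 0.189).

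Groups tied to membranes, channels and the cell surface were counted beside the 26.9% higher and 25.9% lower among all genes tested, and the shares of the annexin, channel and integrin groups lay near these. Of 28 annexins, ESCRT-III and other membrane repair genes 7 rose and 6 fell, against 24 and 0 under the spike-in scaling, and Anxa6, an annexin, fell by 0.57. Of 24 genes of calcium, mechanosensitive and volume-regulated channels and pumps 6 rose and 7 fell, against 20 and 0 under the spike-in scaling, with Tmem63b, an osmosensitive channel, raised by 0.58 and the calcium release channel Itpr1 lowered by 0.52. Of 7 caveola genes 4 fell and 1 rose, against 0 and 5 under the spike-in scaling. In sham cells 6 of the 7 fell and 1 rose. Of 21 integrins, cadherins and focal adhesion genes 6 rose and 6 fell, against 18 and 2 under the spike-in scaling. Among them Itga1 fell by 2.17 and Itga6 rose by 0.82. In sham cells 4 of the annexin group rose and 7 fell, 6 of the channel group rose and 5 fell, and 6 of the integrin group rose and 8 fell. Of 10 genes of microvilli and cortical actin 4 fell and 1 rose, a balance of 0 and 8 under the spike-in scaling. In sham cells 4 of the 10 fell and 4 rose. Endoplasmic reticulum chaperones rose in 8 and fell in 6 of 19 cases, beside 8 and 4 in sham cells. Clock genes rose in 3 and fell in 7 of 15 cases, where Bhlhe40 fell by 1.55 and Cry1 rose by 1.17. The clock balance turned to 7 raised and 3 lowered under the spike-in scaling, and in sham cells 0 clock genes rose and 6 fell. Over the 612 genes of all lists, the difference from sham was called for 2 with limma, Nr4a2 and Ccn1, beside 62 of all 13953 genes (0.444%). It had an unadjusted p under 0.05 for 120 of them, beside 2502 of all 13953, and was called for 3 by a plain two-way analysis of variance, the third being Bcl2l1, an anti-apoptotic gene.

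**Figure D3:**
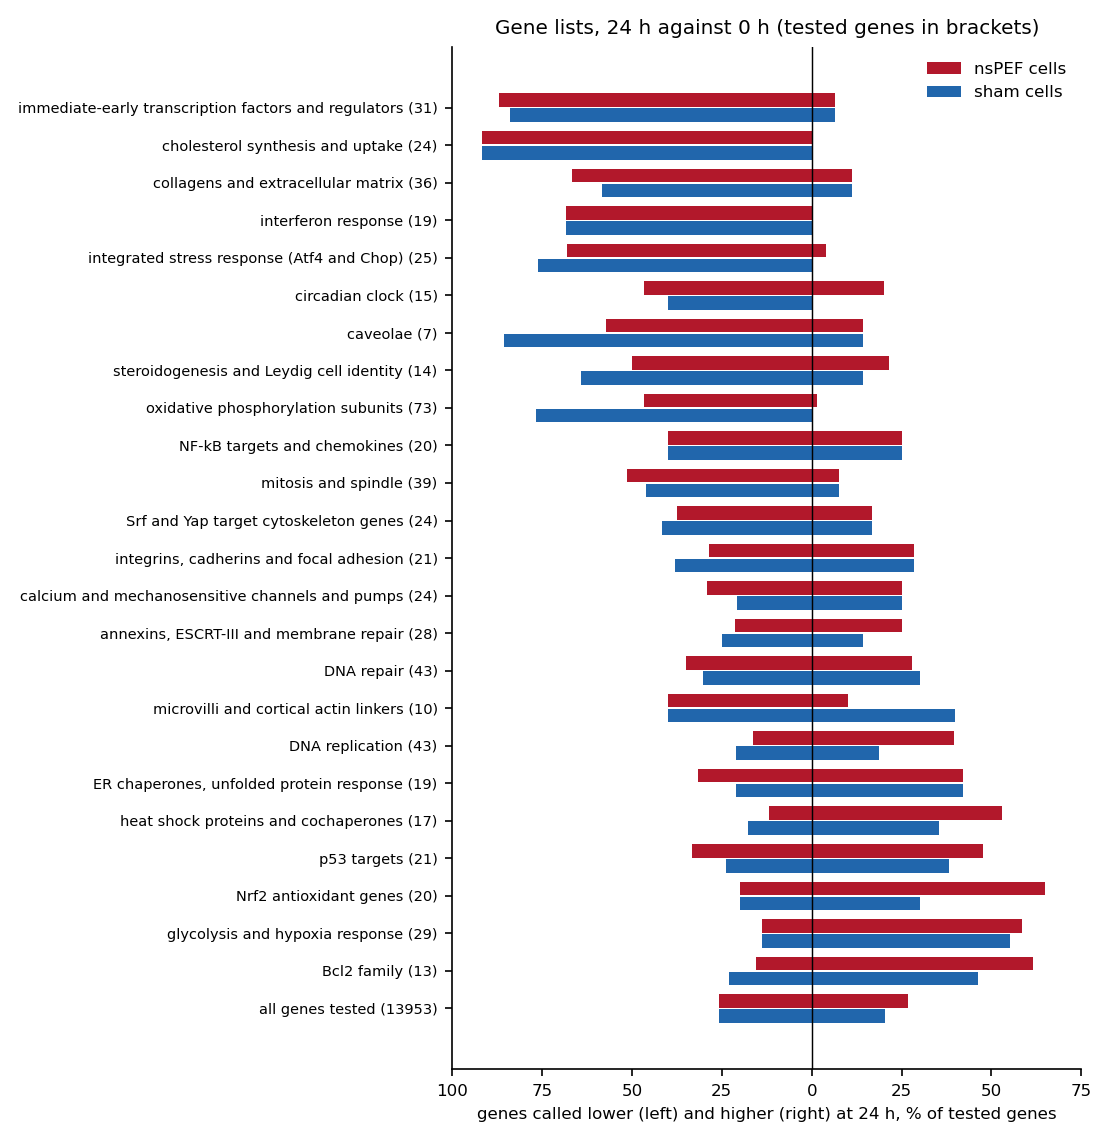
Share of the tested genes of each list, in percent, that fell (bars to the left) or rose (bars to the right) from 0 h to 24 h in exposed and in sham cells, ordered by the median change in exposed cells. Immediate-early genes (27 of 31) and cholesterol genes (22 of 24) hold the largest shares of falls, and under the spike-in scaling the balance of the groups with small negative medians turned.

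Among probes well above background on all 8 exposed arrays and without overlap between the times, the 12 genes with the largest rises are given here. Mir100hg, Snora74a, Scarna13 and Snhg4 among them are non-coding RNAs, whose share among all tested genes was not counted. Outside that filter larger rises were measured, those of 3.98 for Gm28729 and Gm36908 in the first rows of the array among them. Mir100hg, the host transcript of a microRNA cluster, stood at -2.01, -2.08, -1.83 and -1.94 at 0 h and at 1.18, 0.91, 1.20 and 1.05 at 24 h. It rose by 3.05 (8.29-fold) in exposed and by 3.24 in sham cells, although the smallest change among its 3 tested probes was 0.26. The small nucleolar RNA Snora74a rose by 2.49 (5.61-fold) and the Cajal body RNA Scarna13 by 2.49 (5.60-fold). The host transcript Snhg4 rose by 1.90 (3.72-fold). The transporters Slco4a1, for organic anions, and Slc16a11, a member of the monocarboxylate family, rose by 1.99 and 1.79, and Bcl2l15 and Styk1, a receptor-like kinase, by 1.87 and 2.04. U90926 and D930048N14Rik, which are known by clone names, rose by 1.96 and 2.14. The placental prolactin-family genes Prl2c1 and Prl2c3 rose by 2.08 and 1.80, values that are uncertain because this family holds near-identical copies that a probe may share. In sham cells all 12 rose by 1.50 to 3.24. Seen only as bounds, Zfp939 was at least 3.8-fold, Prl3d1 at least 3.56-fold, the glutathione transferase Gsta2 at least 3.34-fold and the calcium channel gene Cacna1d at least 3.12-fold higher at 24 h in exposed cells. In sham cells Gsta2 rose by 2.82 and Prl3d1 by 1.90, while the changes of Zfp939 (0.88) and Cacna1d (0.77) did not pass the test. Not all sham 0 h arrays were well above background for these genes, and for none of them did the difference pass the test.

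The RNA of RNase P, the ribozyme that trims the 5′ ends of transfer RNAs, rose in exposed cells and not detectably in sham cells. Rpph1 stood at -0.09, -0.31, -0.32 and -0.49 on the exposed 0 h arrays and at 0.90, 1.34, 1.31 and 1.64 on the 24 h arrays. In sham cells it stood at 0.61, 0.69, 0.77 and 0.38 and then at 0.56, 0.53, 0.81 and 1.13. The exposed arrays lay below all sham arrays at 0 h, and at 24 h 3 of the 4 lay above all of them. The rise was 1.60 ± 0.14 (3.03-fold) in exposed cells, the change in sham cells was 0.14 (adjusted p = 0.421), and the difference was 1.46 ± 0.20 (adjusted p = 0.0019). At 0 h the exposed cells differed from the sham cells by -0.92 (adjusted p = 0.016) and at 24 h by 0.54 (adjusted p = 0.028), so the difference in change was made up of a lower start and a higher end.

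The genes Rprl1, Rprl2 and Rprl3, named as RNase P RNA-like, showed the same pattern at lower levels. Rprl1 went from -3.01, -3.02, -2.97 and -3.12 to -2.21, -1.58, -1.94 and -1.60 in exposed cells, a rise of 1.20, beside a change of 0.04 in sham cells. Rprl2 rose by 1.15 against a sham change of -0.07, and Rprl3 by 1.15 against -0.12. The differences were 1.16, 1.22 and 1.27 (adjusted p = 0.0093, 0.011 and 0.010). Because these RNAs are near-identical copies of each other and of Rpph1, the 4 probes may read the same transcript and are not independent of each other. The difference of Rpph1, Rprl2 and Rprl3 was called under all 16 other settings tried, that of Rprl1 under 15 of 16, and all 4 with each of the 16 arrays left out. With 1 replicate number dropped from every group, Rpph1 and Rprl1 remained called in 2 of 4 cases and Rprl2 and Rprl3 in 1 of 4.

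Scarna13, a guide RNA of Cajal bodies, was named for its rise, and its difference from sham was noted after its values were seen. It stood at -1.81, -2.21, -2.22 and -2.13 at 0 h and at 0.14, 0.46, 0.35 and 0.62 at 24 h in exposed cells, and at -1.52, -1.57, -1.51 and -1.46 and then at -0.09, -0.15, 0.03 and 0.17 in sham cells. As for Rpph1, the exposed arrays were the lower ones at 0 h. The difference in change was 0.98 ± 0.14 (adjusted p = 0.0026), called under all 16 settings and with each of the 16 arrays left out, and in 2 of 4 cases with 1 replicate number dropped. For Snora74a the difference was 0.79 (adjusted p = 0.071).

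A further 2 genes, with rises that were smaller in exposed cells, were picked from the called differences, so their shared direction is no result about splicing. Clk1, a kinase of splicing factors, and Rsrp1, an arginine- and serine-rich protein, were both named after their values were seen. Clk1 stood at 1.28, 1.36, 1.32 and 1.30 at 0 h and at 1.67, 1.42, 1.57 and 1.59 at 24 h in exposed cells, where the sham arrays reached 1.85, 1.87, 1.87 and 1.80. Its rise was 0.25 against 0.63 in sham cells, a difference of -0.38 ± 0.07 (adjusted p = 0.011). Its second probe differed by -0.46 (adjusted p = 0.042), with a change in exposed cells that did not pass the test. Rsrp1 rose by 0.96 against 1.35, a difference of -0.39 (adjusted p = 0.041), on 1 of its 2 probes. With single arrays left out the first Clk1 probe was called in 16 of 16 cases, the second in 5 and Rsrp1 in 6. Under the other settings tried they were called in 15 of 16, 11 of 15 and 13 of 16. With 1 replicate number dropped from every group, both Clk1 probes and Rsrp1 were called in 0 of 4 cases.

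**Figure D4:**
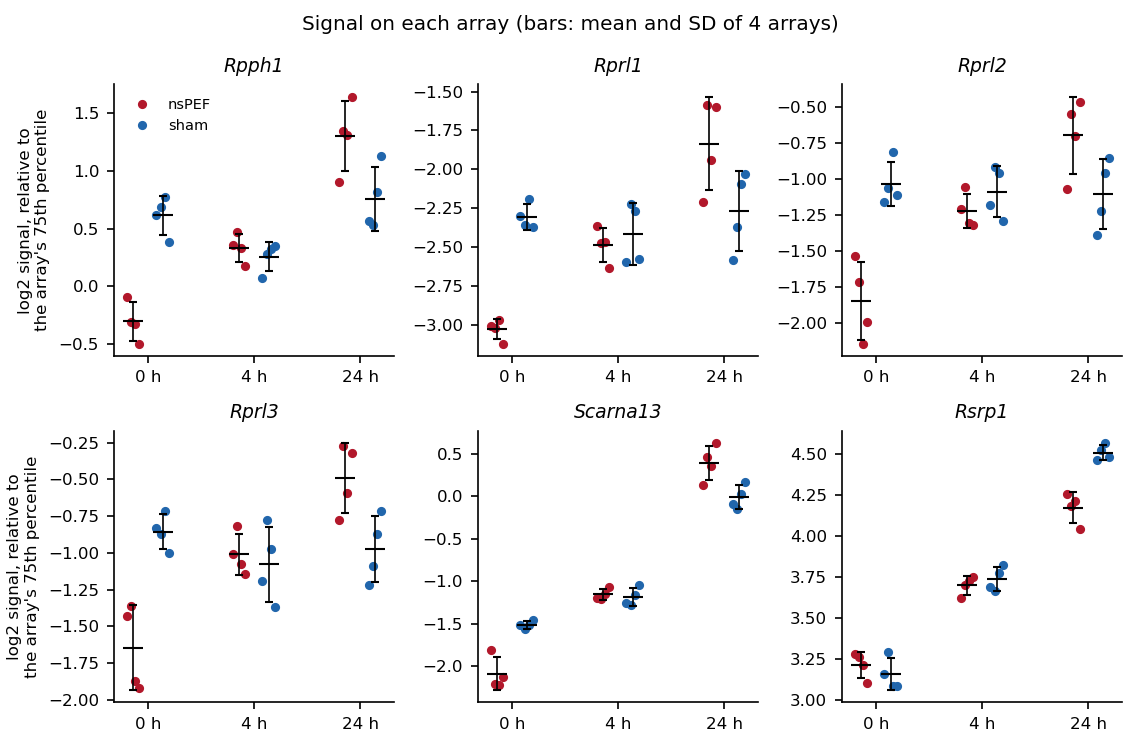
Log2 level relative to the array's 75th percentile of Rpph1, Rprl1, Rprl2, Rprl3, Scarna13 and Rsrp1 at 0, 4 and 24 h, with a dot for each array and the mean ± SD of each group of 4. Exposed cells start below sham cells for the RNase P RNAs and Scarna13 and end at or above them, while Rsrp1 ends lower.

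Among the probes that fell further in exposed cells were those of Chka, Aldh6a1, Hacl1, Matn2 and Smpd3, which were not tested as a group. Chka, the first enzyme of phosphatidylcholine synthesis, fell by 1.65 against 0.89 in sham cells (difference -0.77, adjusted p = 0.037), but only 1 of its 3 probes had a called difference. Aldh6a1, a mitochondrial dehydrogenase of valine breakdown, stood at 1.43, 1.38, 1.43 and 1.40 and then at 0.22, 0.03, 0.38 and -0.11, below all sham values of 0.64 to 0.80 at 24 h. It fell by 1.28 against 0.72 (difference -0.57, adjusted p = 0.019). Hacl1, a peroxisomal lyase of fatty acid alpha-oxidation, fell by 1.49 against 0.91 (difference -0.58, adjusted p = 0.033). The direction of that difference turned with marked spots kept (0.13) and in the deposited log2 values (0.11). Matn2, a matrix adaptor protein, fell by 1.14 against 0.59 (difference -0.55) and Smpd3, a neutral sphingomyelinase, by 0.81 against 0.33 (difference -0.48). With single arrays left out Aldh6a1 remained called in 14 of 16 cases, Chka and Hacl1 in 7, and Matn2 and Smpd3 in 5. Under the other settings tried Aldh6a1 was called in 14 of 16, Hacl1 and Matn2 in 12 of 16, Smpd3 in 11 of 16 and Chka in 10 of 14. With 1 replicate number dropped from every group, each was called in 0 of 4 cases.

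For another 4 genes the exposed fall stood beside a sham change that did not pass the test. Adssl1, the muscle-type adenylosuccinate synthase, fell by 0.66 while sham changed by 0.07 (difference -0.73, adjusted p = 0.0093). Ccr7, a chemokine receptor, stood at -1.95, -1.78, -1.55 and -1.48 and then at -2.62, -2.79, -2.57 and -2.67 in exposed cells, beside -2.20, -2.23, -2.09 and -1.93 and then -2.20, -2.14, -2.38 and -2.09 in sham cells. The exposed 24 h arrays of Ccr7 lay below all others, and it fell by 0.97 against a sham change of -0.09 (difference -0.88 ± 0.14, adjusted p = 0.0093). Asah2, a neutral ceramidase, fell by 0.82 (difference -0.72) and Dync2h1, the motor of retrograde transport in cilia, by 0.78 (difference -0.73). Zyg11b, a substrate receptor of a ubiquitin ligase, fell in both, by 1.23 against 0.49 in sham cells (difference -0.74), on 1 of its 2 probes. The differences of Adssl1, Ccr7 and Zyg11b were called in 16 of 16 cases with single arrays left out, that of Dync2h1 in 6 and that of Asah2 in 5. With normexp background correction only that of Ccr7 was called among these genes. With 1 replicate number dropped from every group, Dync2h1 was called in 0 of 4 cases and each of the others in 1 of 4.

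Probes with a more positive difference were dimmer, with a median level of -2.82 against -1.26 for those with a more negative one. Kcnn1, a calcium-activated potassium channel, stood at -3.78, -3.52, -3.83 and -3.88 at 0 h and at -2.98, -2.72, -3.06 and -2.56 at 24 h in exposed cells, while sham arrays went from -3.54, -3.85, -3.69 and -3.73 to -4.28, -4.76, -4.64 and -3.99. Exposed and sham cells thus moved apart, by a rise of 0.92 and a fall of 0.72 (difference 1.64 ± 0.24, adjusted p = 0.0037), and only 1 of the 2 Kcnn1 probes was called. The potassium channel gene Kcnk16 rose by 0.80 (difference 1.16), the keratin Krt80 by 0.44 (difference 1.19) and Tmem174 by 1.41 (difference 1.64). Acp5, the tartrate-resistant acid phosphatase, and Olfr1344, an olfactory receptor, had differences of 1.27 and 1.26 with exposed changes of 0.33 and 0.44 that did not pass the test. Kcnn1, Kcnk16 and Krt80 were called in 16 of 16 cases with single arrays left out, Tmem174 in 7, and Acp5 and Olfr1344 in 5. With normexp background correction none of these differences was called. With 1 replicate number dropped from every group, Kcnn1 was called in 2 of 4 cases, and Kcnk16, Krt80 and Tmem174 in 1 of 4. Acp5 and Olfr1344 were then called in 0 of 4.

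The place of a probe on the array moved with these calls. Rows 289 to 384 of the array held 24.9% of the tested probes but 46 of the 80 probes with a more positive difference (57.5%) and 22 of the 59 with a more negative one (37.3%). At the other end, 11 probes with a symbol rose by more than 2.5 in exposed cells and changed by less than 1 in sham cells, and 10 of them lay in rows 1 to 12, which held 3.19% of the tested probes. Among these were Gm28729 in row 6, with the largest difference of all called probes (3.98, adjusted p = 1.9e-05), and Gm36908 in row 7 (3.89, adjusted p = 0.042), both named after their values were seen. Rpph1 lay in row 154, Rprl1 in row 204, Rprl2 in row 232, Rprl3 in row 68, Scarna13 in row 201 and Clk1 in rows 93 and 189, which is outside both ends. Within rows 289 to 384 lay the called probes of Nr4a2, Ccn1, Pim1, Ccr7, Chka, Zyg11b, Adssl1, Ddb2, Kcnn1, Kcnk16, Krt80, Acp5 and Olfr1344, and that of Tmem174 lay in row 13. With the first and last 48 rows left out, 92 probes had a called difference, and 215 after centring within array rows and signal classes.

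How many differences were called also depended on the background correction and on single arrays. With normexp background correction 13 probes were called, and with the spike-in scaling 2140. Without replicate 1 of the exposed 24 h group, the array with the most marked spots, the count went from 139 to 1827 probes (6.21%), of which 1073 were more positive and 754 more negative, and 138 of the 139 were among them. Leaving out any other single array gave a lower count, and the genes named here were chosen after their values were seen. With replicate 1 dropped from every group, 66 probes were called. Without only the exposed 24 h array, 6 of 31 immediate-early genes fell further in exposed cells (Dusp1, Egr2, Egr3, Fos, Ier3 and Nr4a2). Fos stood at -0.54 (adjusted p = 0.021) in place of -0.43 (adjusted p = 0.150). Likewise 6 of 36 collagen and matrix genes (Col3a1, Col5a1, Col5a2, Lox, Mmp13 and Plat) had a more negative difference, Lox among them at -0.74 (adjusted p = 0.0077). More positive differences appeared for 6 of 43 DNA replication genes (Ccne1, Cdc6, Mcm5, Prim1, Rfc2 and Tk1), 5 of 73 oxidative phosphorylation subunits and 3 of 21 p53 targets (Aen, Bax and Phlda3), with Bax at 0.31 (adjusted p = 0.038). The share of the oxidative phosphorylation subunits lay near the 6.21% of all tested probes. These list counts were upper ends. Across the fits with 1 array left out, the immediate-early, matrix and DNA replication lists held 0 to 6 called members each. The oxidative phosphorylation list held 0 to 5 and the p53 list 0 to 3. The Bcl2, Nrf2, NF-kB, integrated stress response and cholesterol lists also held 0 to 3 each. The count rose to 249 without exposed 24 h replicate 3, to 323 without exposed 0 h replicate 2 and to 372 without sham 24 h replicate 4. It went down to 92 without exposed 0 h replicate 1, to 40 without exposed 0 h replicate 3, to 53 without exposed 0 h replicate 4, to 55 and 47 without exposed 24 h replicates 2 and 4, to 38, 33 and 78 without sham 0 h replicates 1, 3 and 4, and to 45, 46 and 42 without sham 24 h replicates 1, 2 and 3.

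**Figure D5:**
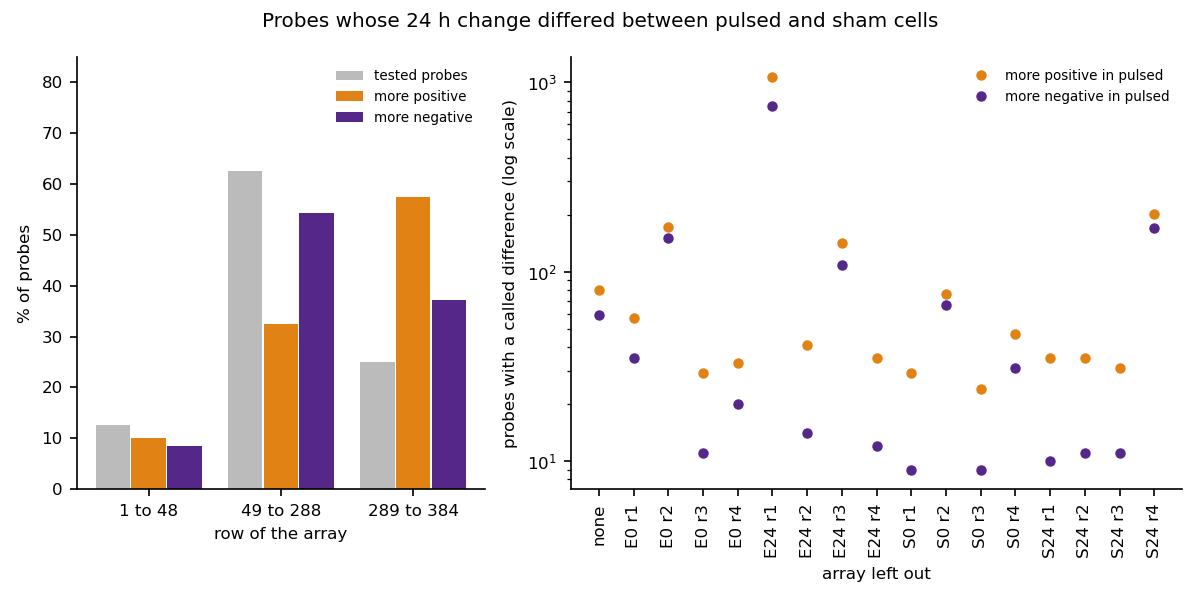
Left, share in percent of all tested probes and of the probes with a called difference that lay in each band of array rows. Right, number of probes with a called difference on a log axis when each of the 16 arrays is left out, for the differences that were more positive and more negative in exposed (pulsed) cells. Without exposed 24 h replicate 1 the counts are 1073 and 754.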

How the data were processed

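RNA of the exposed and sham groups was labelled with Cy3 and hybridized to one-colour Agilent SurePrint G3 Mouse arrays, 1 sample an array. The authors deposited the scanner output of Agilent Feature Extraction 12.0, in which each spot has a processed signal intensity in arbitrary units that is background-subtracted and detrended and not scaled between arrays. They also deposited a table of log2 values, shifted to the 75th percentile and centred on each probe's median over the 24 arrays, which served as an alternative. Of its columns 0 were left without a sample.

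Control spots and spots marked as not uniform or as population outliers were left out, spots of a probe were averaged to 56605 probes, and the 75th percentile of each array was subtracted on the log2 scale. Saturated spots numbered 0. Gene symbols came from RefSeq accessions for 34566 probes (61.1%). A probe was tested where it was well above background on all 4 arrays of exposed cells at 0 h or at 24 h. In R 4.3.3 with limma 3.58.1 (and the package data.table, version 1.17.8), means of the 6 groups were fitted to 24 arrays, the study's methods naming a two-way analysis of variance, and the contrasts were 24 h minus 0 h in exposed cells, in sham cells, and the difference between both. Adjusted p-values are by Benjamini-Hochberg over the 29429 tested probes at a threshold of 0.05. A value left out on 1 array was treated as missing in the fit. Genes in lists were counted by the probe with the highest mean. For a probe above background in 1 group only, the fold is a lower bound, with the other group raised, array by array, to the dimmest signal still called above background.

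The members and lists were chosen with earlier results of these data known. Genes are named by a rule. They are the 12 that rose and the 12 that fell most in exposed cells among called probes well above background on all 8 arrays without overlap, the 4 largest bounds on each side, the 10 largest called differences on each side among probes well above background on all 16 arrays, up to 4 changed members of each list, list members with a called difference, markers, and Fos. Zfp750, also in the rule, had no tested probe. A further 3 genes that the rule picks are not reported here. Osmr, Cebpd, Pim1, Clk1, Rsrp1, Msmo1, Ddb2, Bcl2l1, Cdh12, Cacna1b, Stim1, Glis3, Bicc1, C1s1, Gm28729, Gm36908, the difference of Scarna13, and the genes called without 1 array were chosen after their values were seen. Precision is limited by 4 arrays a group. The procedure was tested on simulated data. Alternatives covered scaling (quantile, spike-in, other percentile), background (normexp with offset 50, a floor), filters, marked spots, the samples in the fit, the test, a replicate block, array rows, probes of a gene, the deposited log2 values, and each array left out. Sequences were read from a RefSeq table of promoters, and the plots were drawn with matplotlib.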

Additional observations from a re-analysis of the deposited data

Results flagged for a closer look

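Differences between the exposed and the sham change over 24 h that passed limma's test are listed here as log2 values, exposed minus sham. More positive in exposed cells were Tmem174 (1.65), Kcnn1 (1.64), Rpph1 (1.46), Rprl3 (1.27), Acp5 (1.27), Olfr1344 (1.26), Rprl2 (1.22), Krt80 (1.19), Kcnk16 (1.16), Rprl1 (1.16), a probe of Stim1, the calcium sensor of the endoplasmic reticulum (1.02), a probe of Cacna1b, a neuronal calcium channel (1.00), Scarna13 (0.98), the cadherin Cdh12 (0.81) and the transcription factor Glis3 (0.75). More negative were Ccr7 (-0.88), Chka (-0.77), Zyg11b (-0.74), Adssl1 (-0.73), Dync2h1 (-0.73), Asah2 (-0.72), Hacl1 (-0.58), Aldh6a1 (-0.57), Matn2 (-0.55), Smpd3 (-0.48), Nr4a2 (-0.48), both Clk1 probes (-0.46 and -0.38), the RNA-binding protein gene Bicc1 (-0.46), Ddb2 (-0.44), the complement protease C1s1 (-0.43), Osmr (-0.41), Pim1 (-0.41), Rsrp1 (-0.39), Msmo1 (-0.35), Cebpd (-0.32) and Ccn1 (-0.29). With single arrays left out, Cdh12 remained called in 8 of 16 cases, and Stim1, Cacna1b, Glis3, Bicc1 and C1s1 in 5. With 1 replicate number dropped from every group, Cdh12 was called in 1 of 4 cases and the other genes of these 6 in 0 of 4. Under the other settings tried, Stim1 was called in 8 of 15, Glis3 in 6 of 15, Cacna1b in 11 of 15, Bicc1 in 10 of 14, C1s1 in 13 of 16 and Cdh12 in 13 of 15. The exposed change of Cdh12 did not itself pass the test. The called probes of Cdh12 and Bicc1 lay in rows 364 and 340, within the array rows where called differences were more frequent.

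Of 348 groups of 4 arrays, 17 had 1 array far from the other 3 by Dixon's criterion, and chance marks about 1 in 20 such groups. On exposed 0 h arrays these were Acp5 (-4.25) on replicate 1, Fosb (3.33) on replicate 1, Psmb8 (-2.73), Wt1 (4.35) and Xpa (2.02) on replicate 2, and Bax (3.08), G6pdx (2.44) and Mrc1 (-4.66) on replicate 4. On exposed 24 h arrays they were Cth (-3.68), Rdx (2.41) and Tnfaip3 (1.25) on replicate 1, Btg2 (-1.37) and Kcnk16 (-2.88) on replicate 2, Ccn1 (3.45), Egln3 (1.49) and Slco4a1 (3.23) on replicate 3, and Fam71a (-4.55) on replicate 4. Each value is a log2 level relative to the 75th percentile of its array.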

How the results depend on the processing

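The change from 0 h to 24 h in exposed cells was called for 14680 probes, and for 22200 under spike-in scaling and 7600 genes with 1 probe a gene. The corresponding numbers in sham cells were 25519 and 6653 beside 13307. Changes of at least 2-fold in exposed cells numbered 3869 under spike-in scaling, 299 with normexp background correction, 3339 without a filter, 2959 with the filter of the study's methods, 864 among probes well above background on all 16 arrays and 653 with 1 probe a gene, beside 1609. The difference between treatments was called for 139 probes, and for 209 with quantile normalization, 2140 with spike-in scaling, 13 with normexp, 56 without a filter, 77 with the filter of the study's methods, 294 with only the groups compared, 215 after centring within array rows and signal classes and 92 in the middle rows. Leaving out 1 array gave 13206 to 14752 calls in exposed cells, 1508 to 1782 of at least 2-fold, 11726 to 13613 in sham cells and 33 to 1827 differences, the lowest without sham 0 h replicate 3 and the highest without exposed 24 h replicate 1. Dropping 1 replicate number throughout gave 11500 to 13376, 1487 to 1817, 9728 to 12695 and 8 to 66. With the replicate number as a block the counts were 15031, 1610, 13614 and 182. Same-numbered exposed arrays correlated at -0.01 to 0.19, and 1 of 4 above 0.1. The range was -0.15 to 0.08 between the sham times, -0.09 to 0.18 between treatments at 0 h and -0.11 to 0.22 at 24 h. Of these, 0, 1 and 2 of 4 lay above 0.1. The study reports that the assays of each biological replicate, apart from adhesion, shared a cell suspension. Whether equal numbers mark such pairs cannot be decided from these correlations. Spike-in scaling turned the direction of the exposed change of Pola1 (0.037), Xpa (0.0040), Chmp2a (0.084), Mcu (0.043), Rdx (0.21), Pls3 (0.24), Pttg1 (0.014), Ndc80 (0.031), Cenpa (0.063), Cavin3 (0.029), Cav1 (0.059), Cavin2 (0.23), Ndufb11 (0.070), Sdha (0.084), Atp5g2 (0.089), Nr5a1 (0.43), Wt1 (0.015) and Ddb2 (0.37). The difference of Hacl1 turned to 0.13 with marked spots kept and 0.11 in the deposited log2 values. The cause of these shifts was not tested. Of 2714 values for the 174 named probes under other settings, 2629 kept the direction and side of the threshold of the exposed change. Of 571 such values for the 37 differences, 460 did. With an array or a replicate number left out, 3414 of 3480 values of the exposed change and 373 of 740 of the differences did. Signal over background limits the dimmest probes, whose folds are bounds.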
